A study of Mus musculus with 16 samples.

Results

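The Slc25 genes encode the mitochondrial carrier family, and 45 of them are described here in mouse fat cell precursors before and after differentiation. They are the genes whose symbol in both deposited tables is Slc25a followed by a number, out of 41325 genes listed in both, with the citrate carrier Slc25a1 and the acylcarnitine carrier Slc25a20 left out of the 47 that carry such a symbol. The cells were immortalized preadipocytes of wild-type C57Bl6/J mice, a culture model of precursors that turn into lipid-storing adipocytes once differentiation is induced. The 4 groups of 4 libraries were day 6 of differentiation after 16 h of pre-treatment with IL-13, day 6 with no agent, day 0 after the same 16 h of IL-13, and day 0 with no agent. IL-13 is a cytokine of type 2 immunity that acts on non-immune cells through Il4ra and Stat6. All groups share the strain, the wild-type genotype and the immortalized state. Nothing in the labels tells separate cultures from repeat libraries of 1 culture, or gives the number of cell lines, so p-values here rest on a spread between libraries that may be technical.

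Mitochondrial carriers sit almost all in the inner membrane, where each swaps or symports a small molecule between the cytosol and the matrix. The best known is the ADP/ATP exchange that supplies the cell with ATP, and others move phosphate, organic acids, amino acids, nucleotides, cofactors, iron and glutathione. In fat cells the family matters because citrate, malate and oxoglutarate leave or enter the matrix during lipid synthesis, and because uncoupling proteins of brown fat belong to the same family under other names. The carriers are described below by what they carry. The roles are background knowledge of mammalian proteins, several of them established in human cells, and the substrates of Slc25a34, Slc25a35, Slc25a43, Slc25a47 and Slc25a53 are not assigned here.

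Libraries held 15253031 to 18112087 counts. The day 6 libraries had fat cell transcripts: 8 adipocyte markers summed to 17740 to 18470 TPM with IL-13 and 17310 to 18850 TPM without at day 6, against 195.6 to 209.8 and 196.2 to 214.7 TPM at day 0, where the leptin gene Lep was at 0. The 6 preadipocyte markers summed to 136.3 to 169.3 and 152.3 to 191.3 TPM at day 6, against 942.7 to 1019 and 940.2 to 977.1 TPM at day 0. Markers of other cells were low: 5 macrophage genes reached at most 11.5 TPM in sum with Adgre1 at 0 in every library. The 4 muscle genes summed to 6.943 to 9.245 TPM in IL-13 and 12.71 to 18.42 TPM in untreated cells at day 0. That sum came from Acta1, with Myod1, Myog and Ckm at 0, and Acta1 was lower with IL-13 (log2 fold change -0.78). At day 6 the muscle genes summed to 4.275 to 8.98 TPM with IL-13 and 4.61 to 6.982 TPM without, with Myod1 and Ckm at 0. A nuclear RNA index, the mean log2 CPM of 21 tested of 22 transcripts known to be kept in the nucleus or to carry retained introns, was lower in every IL-13 library than in every untreated library of the same day. It was 5.52 ± 0.316 in IL-13 and 6.61 ± 0.306 in untreated libraries at day 6, and 5.07 ± 0.112 in IL-13 and 5.99 ± 0.383 in untreated libraries at day 0 (SD, n = 4; exact two-sided permutation test, p = 0.0286 on each day, the lowest that 70 permutations allow). The list was written with earlier results of these data known, in which this measure had moved with IL-13. The p-values are therefore no independent support for the difference. It touches every comparison of IL-13 with untreated cells below.

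Levels of different genes are compared in TPM, which are scaled for sequencing depth and transcript length, and the deposited TPM of the days come from separate tables. The carriers summed to 5239 ± 85.4 TPM in IL-13 and 5153 ± 137 TPM in untreated cells at day 6, against 2374 ± 32.3 and 2343 ± 42.3 TPM at day 0 (SD, n = 4, as for all values with ± below). The 3 most abundant carriers held between 62.6% and 65.7% of that sum in each group. Slc25a5, the adenine nucleotide translocator of dividing and most other cells (Ant2), came first in all groups with 2455 ± 79.5 TPM in IL-13 and 2316 ± 96.6 TPM in untreated cells at day 6, against 772 ± 41.1 and 752 ± 28.9 TPM at day 0. In that order of levels, the place next to Slc25a5 differed between the days. At day 0 it was held by Slc25a4, the translocator of heart and muscle (Ant1), with 495 ± 7.36 TPM in IL-13 and 460.5 ± 14.2 TPM in untreated cells, ahead of the phosphate carrier Slc25a3 with 293 ± 5.35 and 292 ± 3.90 TPM. At day 6 the glutathione carrier Slc25a39 (485 ± 60.0 TPM in IL-13 and 433 ± 17.5 TPM in untreated cells) and Slc25a3 (452 ± 18.2 and 478 ± 21.4 TPM) both stood above Slc25a4 (371 ± 19.4 and 352 ± 13.8 TPM). Slc25a39 and Slc25a3 overlapped between the IL-13 libraries of day 6 and did not overlap between the untreated ones. Next came the oxoglutarate carrier Slc25a11, with 312 ± 14.7 TPM in IL-13 and 296 ± 4.22 TPM in untreated cells at day 6.

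At the other end, Slc25a2, Slc25a18, Slc25a31, Slc25a41, Slc25a48 and Slc25a54 had between 0 and 4 counts over all 16 libraries and could not be tested. They include the testis-type adenine nucleotide translocator Slc25a31 and Slc25a18, a glutamate carrier of brain. Their levels were not detectable at this depth. The tests used edgeR's quasi-likelihood method across all genes with adjustment over all of them, a carrier is said to rise or fall where the adjusted p was under 0.05, and library values are CPM, counts scaled to library size.

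Over the 6 days of differentiation most carriers rose. In IL-13 pre-treated cells 25 of the 39 tested carriers rose, 10 fell and 4 did not pass, while 40.6% of all 13157 tested genes rose and 40.3% fell. In untreated cells 25 rose, 11 fell and 3 did not pass, beside 41.5% and 39% of all genes. The share of tested carriers that changed was 89.7% in IL-13 cells, beside 80.8% of all genes, and 92.3% in untreated cells, beside 80.5%. The median log2 fold change of the tested carriers was 1.13 in IL-13 cells, where that of all genes was 0.0012, and 1.02 in untreated cells, where that of all genes was 0.04. Changes of at least 2-fold were seen in 20 carriers upward and 6 downward in IL-13 cells, and in 21 and 5 in untreated cells. Of all 13157 tested genes, 2725 rose and 2417 fell that far in IL-13 cells, and 2746 and 2342 in untreated cells. The groups of the 2 comparisons share no library with each other. Both comparisons come from the same fit of all libraries, with a shared filter, scaling and spread, so they are not independent. The carriers that passed a filter on low counts through the day on which they are high had to differ, so these counts describe the 39 tested carriers and not the family. Adipocyte markers moved with the day in the same libraries, and more RNA per cell and more cells of a type cannot be told apart in bulk RNA.

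**Figure D1:**
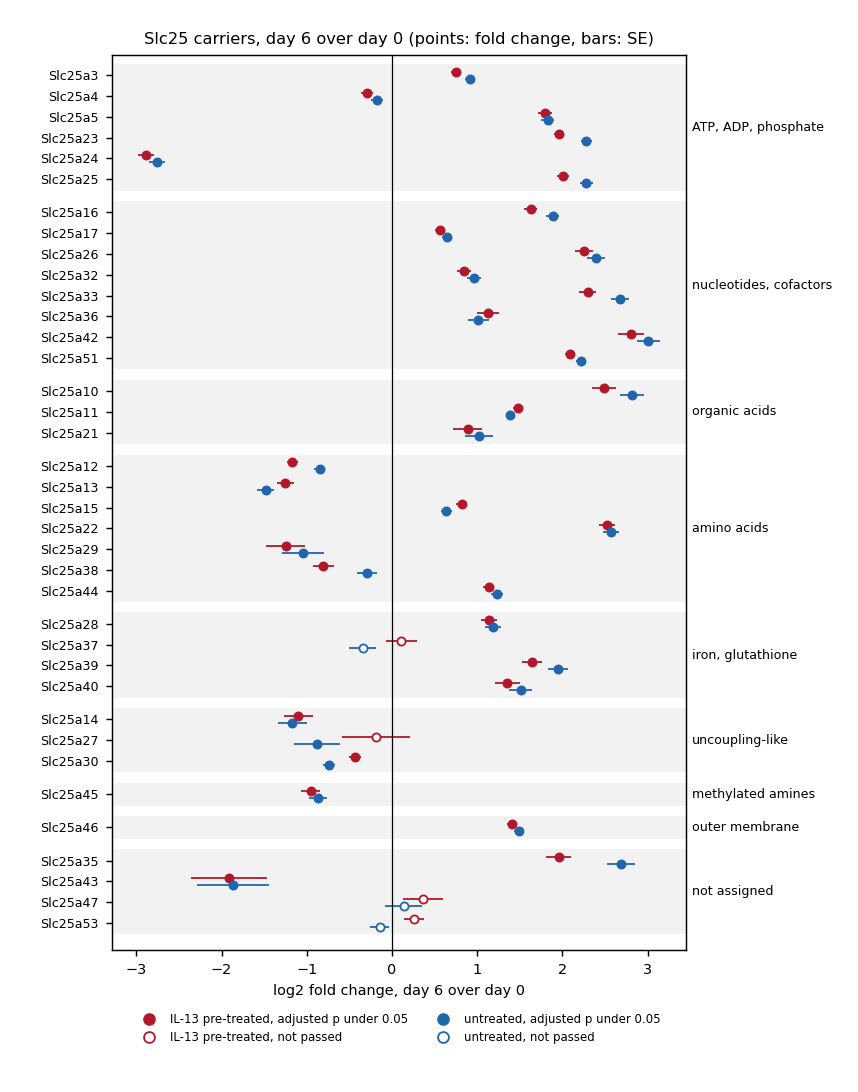
Log2 fold change of tested carriers, day 6 over day 0, grouped by what it carries (horizontal axis in log2 units, bars are the SE of the fit, filled points passed the test at adjusted p under 0.05). Slc25a34 lies off the scale and is left out. The nucleotide and cofactor carriers drawn lie right of 0 in both arms, and the tested carriers of the uncoupling-like group lie left of 0.

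The adenine nucleotide and phosphate carriers did not move as a block: 4 of 6 tested members rose and 2 fell in both arms. Slc25a5 (chromosome X, 36795651 to 36798807 in GRCm38) had 1335, 1283, 1527 and 1406 CPM at day 6, against 376, 417, 447 and 362 CPM at day 0 in IL-13 pre-treated cells. Its untreated libraries had 1184, 1112, 1222 and 1263 CPM at day 6, against 316, 341, 378 and 311 CPM at day 0. The days did not overlap in either arm, and Slc25a5 rose 3.47-fold in IL-13 and 3.55-fold in untreated cells (log2 fold change 1.83, SE 0.08, adjusted p = 1.05e-14 in untreated cells). Of its 50-base stretches 33.8% also occur in 9 other genes of the GENCODE annotation, so how reads shared with these genes were counted could move its level. Slc25a4 went the other way. It had 266, 295, 332 and 304 CPM at day 6, against 350.3, 377, 389 and 348 CPM at day 0 in IL-13 cells, without overlap, and fell by 0.29 on the log2 scale (SE 0.07, adjusted p = 0.000569). In untreated cells it had 242, 256, 278 and 263 CPM at day 6, against 277, 291, 322 and 286 CPM at day 0, with overlap between the days (log2 fold change -0.18, SE 0.07, adjusted p = 0.0207). That call was lost without untreated day 0 library 3 (-0.13, adjusted p = 0.0839). The phosphate carrier Slc25a3, which feeds ATP synthase, rose 1.68-fold in IL-13 and 1.89-fold in untreated cells. The ratio of Slc25a5 to Slc25a4 in TPM was 6.64 ± 0.389 in IL-13 and 6.58 ± 0.392 in untreated cells at day 6, against 1.56 ± 0.0661 and 1.64 ± 0.0545 at day 0.

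The calcium-regulated ATP-Mg/phosphate carriers Slc25a23, Slc25a24 and Slc25a25, which set the matrix pool of adenine nucleotides, changed places. Slc25a24 (chromosome 3, 109123149 to 109168457) had 8.97, 7.44, 7.82 and 8.69 CPM at day 6, against 62.6, 60.5, 63.2 and 58.7 CPM at day 0 in IL-13 pre-treated cells. In untreated cells it had 6.37, 9.21, 8.31 and 7.14 CPM at day 6, against 53.5, 58.6, 51.0 and 47.7 CPM at day 0. It fell 7.43-fold in IL-13 and 6.78-fold in untreated cells (log2 fold change -2.76, SE 0.09, adjusted p = 1.37e-16 in untreated cells), the largest fall among the carriers named by rule. Its relatives rose: Slc25a23 3.90-fold in IL-13 and 4.87-fold in untreated cells, and Slc25a25 4.02-fold and 4.87-fold. Slc25a23 had 60.2, 56.8, 61.6 and 59.8 CPM at day 6, against 12.3, 11.5, 12.95 and 12.2 CPM at day 0 in untreated cells. Slc25a25 had 47.2, 48.1, 51.3 and 47.8 CPM at day 6, against 10.4, 8.99, 9.90 and 10.5 CPM at day 0 in the same cells. Each of the 3 genes kept its days apart in all libraries. In TPM, Slc25a23 stood at 5.12 ± 0.666 times Slc25a24 in IL-13 and 5.09 ± 0.905 times in untreated cells at day 6, against 0.175 ± 0.00408 and 0.151 ± 0.0183 times at day 0. For Slc25a25 over Slc25a24 the ratio was 2.38 ± 0.228 and 2.78 ± 0.400 at day 6, against 0.0790 ± 0.00822 and 0.0833 ± 0.0122 at day 0.

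**Figure D2:**
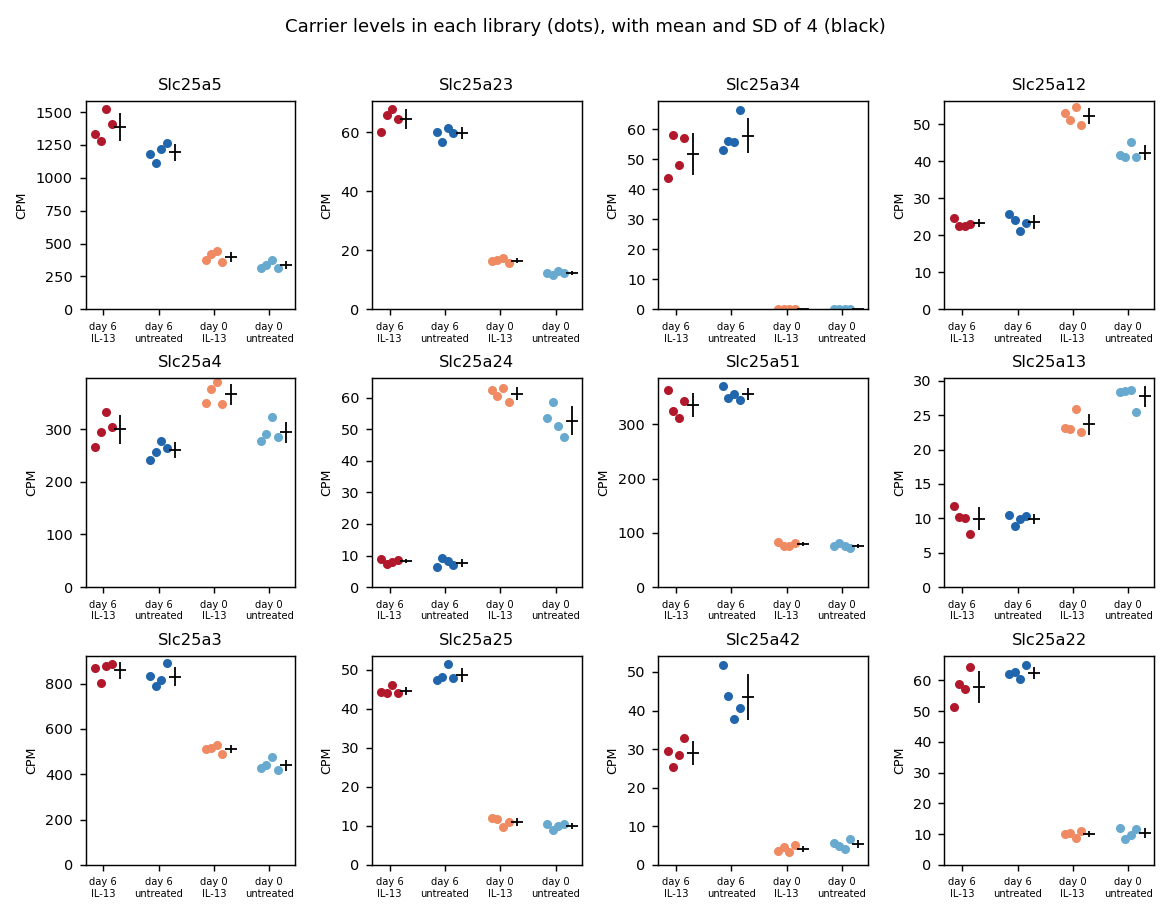
CPM of 12 carriers in each library (dots, vertical axis from 0 in each panel), with the mean and SD of the 4 libraries of a group in black, day 6 left of day 0 and IL-13 left of untreated. Slc25a24, Slc25a4, Slc25a12 and Slc25a13 have lower means at day 6 in both arms, and the other panels have higher ones.

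Slc25a34 (chromosome 4, 141618824 to 141623821, minus strand), a carrier with no assigned substrate here, was well measured at day 6 and hardly detected at day 0. It had 43.7, 58.2, 48.1 and 57.0 CPM in IL-13 and 53.1, 56.2, 55.7 and 66.3 CPM in untreated cells at day 6. At day 0 it had 0 counts over the 4 IL-13 libraries and 2 over the untreated ones, against sums of 3342 and 3756 counts at day 6. The day 6 level was at least 1124-fold higher in IL-13 cells, taking 3 counts over the day 0 group as the floor, and 2082-fold higher in untreated cells (exact 95% interval 576 to 17200, counting error only). With 56.6 ± 8.31 TPM in IL-13 and 69.0 ± 5.91 TPM in untreated cells it was among the 12 most abundant carriers at day 6.

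To set the carrier that appeared with differentiation beside the carrier with the largest fall, the 250 bases before their RefSeq start sites (GRCm38.p6, gene strand, 5′ to 3′) are shown, at chr4:141623835-141624084 for Slc25a34 on the minus strand and chr3:109122899-109123148 for Slc25a24 on the plus strand. Capitals mark the CCAAT box (CCAAT, read on either strand), a common promoter element bound by NF-Y.
Slc25a34: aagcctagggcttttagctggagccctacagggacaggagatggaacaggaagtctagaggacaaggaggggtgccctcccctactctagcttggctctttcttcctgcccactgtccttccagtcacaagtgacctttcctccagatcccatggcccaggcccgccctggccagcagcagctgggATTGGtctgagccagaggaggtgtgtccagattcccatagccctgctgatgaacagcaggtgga
Slc25a24: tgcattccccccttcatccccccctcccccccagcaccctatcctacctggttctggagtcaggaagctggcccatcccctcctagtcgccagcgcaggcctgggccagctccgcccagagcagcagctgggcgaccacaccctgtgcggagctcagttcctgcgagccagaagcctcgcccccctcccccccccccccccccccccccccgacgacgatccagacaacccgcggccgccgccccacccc
The Slc25a34 window holds CCAAT on the reverse strand with its first base at position -64 from the start site, and the Slc25a24 window holds none of the 5 motifs searched. These were CCAAT, the E-box CACGTG, the STAT core (TTC, any 4 bases, GAA), the ERR element TCAAGGTCA and the NRF1 core of 10 bases, each on both strands. Promoters of 34 of the 45 carriers were in the RefSeq table. CCAAT occurred in 50% of them and in 37.5% of all 27025 genes, CACGTG in 17.6% and 6.86%, the STAT core in 2.94% and 6.76%, TCAAGGTCA in 0% and 0.422%, and the NRF1 core in 0% and 0.877%. The motifs were chosen with results known, and a match describes letters in a window and not a bound site.

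All 9 tested carriers of nucleotides and cofactors rose between the days in both arms, with a median log2 fold change of 2.09 in IL-13 and 2.22 in untreated cells. Slc25a42, a carrier of coenzyme A, had 29.6, 25.2, 28.4 and 32.9 CPM at day 6, against 3.48, 4.56, 3.44 and 5.18 CPM at day 0 in IL-13 pre-treated cells. In untreated cells it had 51.7, 43.8, 37.7 and 40.7 CPM at day 6, against 5.64, 4.99, 4.15 and 6.69 CPM at day 0, and it rose 6.99-fold in IL-13 and 8.06-fold in untreated cells (log2 fold change 3.01, SE 0.14, adjusted p = 5.44e-14 in untreated cells). The carrier of NAD+, Slc25a51, had 364, 324, 311 and 344 CPM at day 6, against 83.04, 76.2, 75.2 and 80.9 CPM at day 0 in IL-13 cells. Its untreated libraries had 370.1, 349, 357 and 346 CPM at day 6, against 75.7, 80.6, 75.8 and 72.3 CPM at day 0, which made it 4.26-fold higher in IL-13 and 4.67-fold higher in untreated cells. Both genes kept the days apart in every library. Slc25a33, a pyrimidine nucleotide carrier, rose 4.91-fold in IL-13 and 6.40-fold in untreated cells, and its relative Slc25a36 2.19-fold and 2.01-fold. The carrier of S-adenosylmethionine, Slc25a26, rose 4.78-fold and 5.25-fold. Slc25a16, a relative of Slc25a42, rose 3.10-fold and 3.70-fold. The smallest increases of the group were those of the folate carrier Slc25a32 (1.80-fold in IL-13 and 1.94-fold in untreated cells) and of Slc25a17 of peroxisomes (1.48-fold and 1.57-fold).

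The 3 organic acid carriers rose as well. Slc25a10 (chromosome 11, 120491840 to 120499187), which exchanges malate and succinate for phosphate and is abundant in white fat, had 164, 199, 254 and 219 CPM at day 6, against 33.3, 41.5, 40.3 and 34.0 CPM at day 0 in IL-13 pre-treated cells. In untreated cells it had 174, 159.5, 188 and 181 CPM at day 6, against 23.0, 19.5, 31.3 and 25.7 CPM at day 0. The days were far apart in both arms, with a rise of 5.60-fold in IL-13 and 7.06-fold in untreated cells (log2 fold change 2.82, SE 0.14, adjusted p = 4.46e-12 in untreated cells). Slc25a11, which exchanges malate for oxoglutarate in the malate-aspartate shuttle, rose 2.78-fold in IL-13 and 2.62-fold in untreated cells. Of its exon bases 8.92% lie opposite exons of Rnf167 on the other strand, and whether counting used the strand is not given in the sources used here. Slc25a21, the oxoadipate carrier of lysine breakdown, rose 1.85-fold and 2.03-fold at low levels.

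Amino acid carriers were split, with 3 of 7 tested members higher and 4 lower in both arms. Those that rose were Slc25a22, a glutamate carrier, 5.75-fold in IL-13 and 5.96-fold in untreated cells, Slc25a44, a carrier of branched-chain amino acids described in brown fat, 2.20-fold and 2.35-fold, and Slc25a15, the ornithine carrier of the urea cycle, 1.77-fold and 1.56-fold. Slc25a22 had 62.0, 62.6, 60.4 and 65.1 CPM at day 6, against 11.9, 8.50, 9.61 and 11.7 CPM at day 0 in untreated cells. Both aspartate-glutamate carriers fell, although they serve the same malate-aspartate shuttle as Slc25a11. Slc25a12 (Aralar) had 24.8, 22.6, 22.4 and 23.1 CPM at day 6, against 53.1, 51.1, 54.7 and 49.8 CPM at day 0 in IL-13 cells. Its untreated libraries had 25.7, 24.0, 21.1 and 23.3 CPM at day 6, against 41.7, 41.2, 45.3 and 41.2 CPM at day 0, a fall of 2.25-fold in IL-13 and 1.80-fold in untreated cells. Slc25a13 (citrin) fell 2.38-fold in IL-13 and 2.79-fold in untreated cells (log2 fold change -1.48, SE 0.10, adjusted p = 1.4e-11 in untreated cells), with 10.5, 8.91, 9.90 and 10.4 CPM at day 6, against 28.3, 28.5, 28.7 and 25.4 CPM at day 0 in the untreated libraries. Neither gene had a day 6 library within the range of day 0. Slc25a29, a carrier of basic amino acids, fell 2.38-fold and 2.06-fold, and Slc25a38, a glycine carrier that supplies haem synthesis, 1.75-fold and 1.23-fold. In untreated cells the call of Slc25a38 was lost without day 6 library 2 (-0.24, adjusted p = 0.0812).

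Among carriers of iron and glutathione, 3 of 4 rose and 1 did not pass in both arms. Slc25a39, which brings glutathione into the matrix, had 364, 457, 545 and 473 CPM at day 6, against 134, 155, 166 and 131 CPM at day 0 in IL-13 pre-treated cells. In untreated cells it had 356, 353, 396 and 390.4 CPM at day 6, against 84.7, 89.9, 119 and 93.0 CPM at day 0, and it rose 3.13-fold in IL-13 and 3.87-fold in untreated cells (log2 fold change 1.95, SE 0.12, adjusted p = 3.22e-11 in untreated cells). Its relative Slc25a40 rose 2.55-fold and 2.85-fold, and in TPM it remained at 0.0164 ± 0.00427 of Slc25a39 in IL-13 and 0.0264 ± 0.00523 in untreated cells at day 6, against 0.0199 ± 0.00479 and 0.0365 ± 0.0116 at day 0. Slc25a28 (mitoferrin 2), the iron carrier of most cells, rose 2.21-fold in IL-13 and 2.28-fold in untreated cells. Slc25a37 (mitoferrin 1), the iron carrier of red cell precursors, was at log2 fold change 0.11 (SE 0.18) with adjusted p = 0.596 in IL-13 cells and at -0.35 (SE 0.16) with adjusted p = 0.0589 in untreated cells. The untreated value of Slc25a37 passed as a fall when any of 9 libraries was left out, among them untreated day 0 library 3 (-0.50, adjusted p = 0.00199) and untreated day 0 library 2 (-0.45, adjusted p = 0.025). The 9 include every IL-13 library of day 0, which enters this comparison only through the shared filter, scaling and spread. Slc25a37 also passed as a fall with RLE scaling (-0.36, adjusted p = 0.0435), total count scaling (-0.45, adjusted p = 0.0267) and DESeq2 (-0.36, adjusted p = 0.0373).

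The uncoupling-like carriers Slc25a14, Slc25a27 and Slc25a30, found mainly in brain and kidney, held no member that rose. In untreated cells 3 of 3 fell and in IL-13 cells 2 of 3. Slc25a14 fell 2.15-fold in IL-13 and 2.25-fold in untreated cells, and Slc25a30 1.35-fold and 1.67-fold. Slc25a27, at under 3 CPM in every library, had a log2 fold change of -0.19 (SE 0.40) with adjusted p = 0.667 in IL-13 cells and fell by 0.88 (SE 0.27, adjusted p = 0.00606) in untreated cells. Slc25a45, a carrier of methylated amines in human cells, fell 1.94-fold and 1.83-fold. Slc25a46, an outer membrane protein of mitochondrial fusion and fission, rose 2.66-fold and 2.81-fold. Of the carriers with no assigned substrate, Slc25a35 rose 3.88-fold in IL-13 and 6.45-fold in untreated cells, although 31.3% of its exon bases lie opposite exons of Rangrf on the other strand. Slc25a43 fell 3.77-fold and 3.65-fold at under 2 CPM in every library. Slc25a47 was at 0.36 in IL-13 and 0.14 in untreated cells on the log2 scale and Slc25a53 at 0.25 and -0.15, and neither passed. The IL-13 value of Slc25a53 (adjusted p = 0.0528) passed as a rise when any of 12 libraries was left out, at log2 fold changes from 0.25 to 0.32. The 12 include every untreated library, which enters this comparison only through the shared filter, scaling and spread. Slc25a53 also passed as a rise with RLE scaling (0.27, adjusted p = 0.039).

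Before differentiation, IL-13 was followed by small differences in both directions. At day 0, 11 of 38 tested carriers rose and 7 fell, while 23.7% of all 12274 tested genes rose and 24.2% fell. The 47.4% of carriers called is next to the 47.9% of all genes called, and the median log2 fold change was 0.03 for the carriers and -0.01 for all genes. The carriers that rose were Slc25a3, Slc25a4, Slc25a5, Slc25a10, Slc25a12, Slc25a23, Slc25a24, Slc25a33, Slc25a35, Slc25a39 and Slc25a44, all by less than 2-fold. The carriers that fell were Slc25a13, Slc25a27, Slc25a30, Slc25a36, Slc25a37, Slc25a45 and Slc25a53, of which Slc25a27 and Slc25a37 fell by more than 2-fold. Total count scaling, under which the median of all genes was -0.13, gave 7 higher and 9 lower carriers, beside 1682 higher and 4523 lower genes of all (2912 and 2969 with TMM scaling). Without untreated libraries 1 and 4, which had the highest nuclear RNA index of day 0, 6 carriers were higher and 4 lower. That fit called 1811 higher and 1674 lower of all 12416 genes. With the index as a covariate 0 carriers were called either way in edgeR, with 4 at an unadjusted p under 0.05. Of all 12274 genes that fit called 396 higher and 331 lower, with 1899 at an unadjusted p under 0.05. Since the index did not overlap between the arms the effect of IL-13 and that of the index cannot be told apart.

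**Figure D3:**
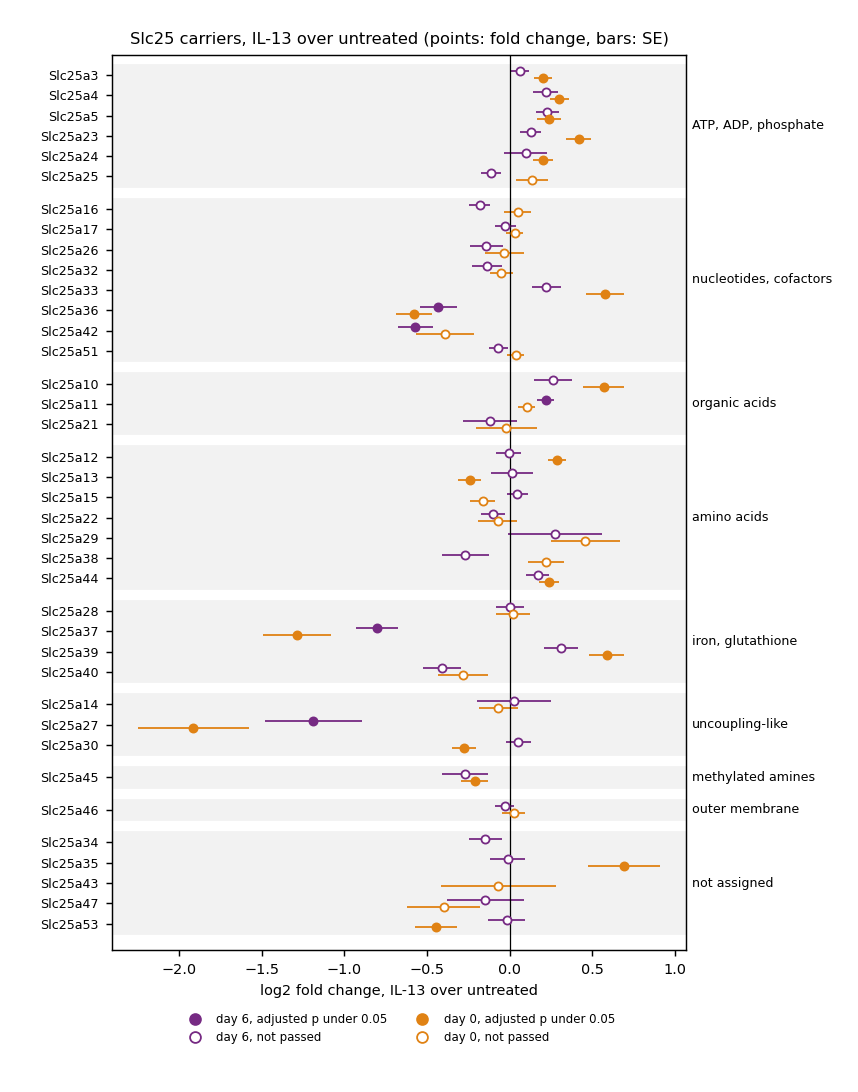
Log2 fold change of tested carriers, IL-13 over untreated, at day 6 (purple) and day 0 (orange), grouped by what it carries (horizontal axis in log2 units, bars are the SE of the fit, filled points passed the test at adjusted p under 0.05). Slc25a34 was tested at day 6 only and Slc25a43 at day 0 only, and Slc25a37 and Slc25a27 lie farthest left on both days.

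Of the carriers that rose at day 0, those with the largest fold changes by rule were Slc25a35, Slc25a39, Slc25a33, Slc25a10 and Slc25a23. Slc25a39 had 137, 158, 168 and 135 CPM in IL-13 libraries, against 87.8, 92.2, 122 and 96.7 CPM in untreated ones. Every IL-13 library was above every untreated one (log2 fold change 0.59, SE 0.10, adjusted p = 0.000994). Slc25a10 had 33.9, 42.3, 40.9 and 35.0 CPM in IL-13 libraries, against 23.8, 20.0, 32.0 and 26.7 CPM in untreated ones, with no overlap (log2 fold change 0.57, SE 0.13, adjusted p = 0.00329). Slc25a33 had 8.19, 8.70, 10.2 and 10.3 CPM in IL-13 libraries, against 5.95, 5.56, 7.29 and 6.23 CPM in untreated ones, again without overlap (log2 fold change 0.58, SE 0.12, adjusted p = 0.00102), and 14.9% of its exon bases lie opposite exons of Gm13068. Slc25a23 had 16.7, 16.9, 17.6 and 16.1 CPM in IL-13 libraries, against 12.7, 11.7, 13.2 and 12.7 CPM in untreated ones, without overlap (log2 fold change 0.42, SE 0.08, adjusted p = 0.000452). Slc25a35 was low, at 2.47 ± 0.448 CPM in IL-13 and 1.51 ± 0.425 CPM in untreated libraries (log2 fold change 0.69, SE 0.22, adjusted p = 0.0166), and its call was lost without untreated library 2 (0.58, adjusted p = 0.0501) or IL-13 library 3 (0.56, adjusted p = 0.0707).

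The abundant translocators and the phosphate carrier changed by less. In the adenine nucleotide and phosphate group 5 of 6 tested members rose and 0 fell at day 0. Slc25a4 had 357, 384, 395 and 359 CPM in IL-13 libraries, against 287, 299, 329 and 297 CPM in untreated ones, with no overlap (log2 fold change 0.30, SE 0.06, adjusted p = 0.000699). Slc25a3 was at log2 fold change 0.20 (SE 0.05) with adjusted p = 0.00679 and Slc25a24 at 0.20 (SE 0.06) with adjusted p = 0.0133, each without overlap. Slc25a5 overlapped between the arms, at 408 ± 37.2 CPM in IL-13 and 347 ± 28.5 CPM in untreated libraries (log2 fold change 0.24, SE 0.07, adjusted p = 0.0146). Its call was lost without untreated library 4 (0.21, adjusted p = 0.0502), IL-13 library 2 (0.22, adjusted p = 0.051) or IL-13 library 3 (0.18, adjusted p = 0.0524). Scaling by total count ended the calls of Slc25a3 (0.08), Slc25a5 (0.12), Slc25a24 (0.08) and Slc25a44 (0.12).

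The pair of aspartate-glutamate carriers moved in opposite directions at day 0. Slc25a12 had 54.1, 52.0, 55.5 and 51.3 CPM in IL-13 libraries, against 43.2, 42.2, 46.2 and 42.9 CPM in untreated ones (log2 fold change 0.29, SE 0.05, adjusted p = 0.000651). Slc25a13 had 23.6, 23.4, 26.2 and 23.2 CPM in IL-13 libraries, against 29.4, 29.2, 29.3 and 26.4 CPM in untreated ones (log2 fold change -0.24, SE 0.07, adjusted p = 0.00919). In neither gene did the arms overlap, and in TPM Slc25a13 stood at 0.876 ± 0.0295 times Slc25a12 in IL-13 cells and 1.27 ± 0.0694 times in untreated cells. At day 6 the same ratio was 0.827 ± 0.123 in IL-13 and 0.819 ± 0.0829 in untreated cells. The branched-chain amino acid carrier Slc25a44 rose at day 0 (log2 fold change 0.24 (SE 0.06), adjusted p = 0.00377), while Slc25a22 (-0.07, adjusted p = 0.641), Slc25a25 (0.13, adjusted p = 0.265), Slc25a11 (0.10, adjusted p = 0.102), Slc25a51 (0.04, adjusted p = 0.591) and Slc25a28 (0.02, adjusted p = 0.892) did not pass.

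The falls at day 0 were led by Slc25a37 and Slc25a36 among the carriers named by rule. Slc25a37 (chromosome 14, 69241848 to 69285112) had 11.9, 11.5, 10.7 and 12.4 CPM in IL-13 libraries, against 35.6, 23.9, 18.6 and 34.5 CPM in untreated ones. The IL-13 libraries lay close together below all untreated ones, which spread widely (log2 fold change -1.29, SE 0.21, adjusted p = 0.000983). Of the 50-base stretches of Slc25a37 6.99% also occur in 1 other gene, and 6.33% of its exon bases lie opposite exons of Gm27223 and Gm31748. Slc25a36 (chromosome 9, 97074961 to 97111157), the second pyrimidine nucleotide carrier, had 37.2, 34.6, 32.3 and 35.7 CPM in IL-13 libraries, against 61.3, 52.2, 39.6 and 55.5 CPM in untreated ones (log2 fold change -0.58, SE 0.11, adjusted p = 0.00135). Of its 50-base stretches 6.7% also occur in 1 other gene. The arms did not overlap, and it moved against its relative Slc25a33: in TPM Slc25a36 stood at 0.745 ± 0.119 times Slc25a33 in IL-13 and 1.67 ± 0.419 times in untreated cells at day 0. Slc25a27, chosen after its values were seen because it lay under the level set for named genes, had 0.367, 0.644, 0.301 and 0.658 CPM in IL-13 libraries, against 2.44, 1.70, 0.999 and 2.23 CPM in untreated ones (log2 fold change -1.91, SE 0.34, adjusted p = 0.000365). Slc25a53 (log2 fold change -0.45 (SE 0.13)), Slc25a30 (-0.28 (SE 0.07)) and Slc25a45 (-0.21 (SE 0.08)) also fell without overlap. The call of Slc25a45 (adjusted p = 0.0499) was lost when any of untreated libraries 1, 2 and 4 or IL-13 libraries 1, 2 and 3 was left out, at values from -0.23 to -0.17.

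Because these carriers of pyrimidine nucleotides moved in opposite directions, their upstream 250 bases are shown as above, at chr4:149774268-149774517 for Slc25a33 and chr9:97111042-97111291 for Slc25a36, both on the minus strand. Capitals mark the E-box CACGTG and CCAAT.
Slc25a33: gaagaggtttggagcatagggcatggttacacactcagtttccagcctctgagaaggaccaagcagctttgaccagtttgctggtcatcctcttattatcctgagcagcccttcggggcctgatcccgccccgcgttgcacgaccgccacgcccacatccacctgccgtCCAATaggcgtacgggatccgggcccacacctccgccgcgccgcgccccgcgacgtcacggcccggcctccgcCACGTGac
Slc25a36: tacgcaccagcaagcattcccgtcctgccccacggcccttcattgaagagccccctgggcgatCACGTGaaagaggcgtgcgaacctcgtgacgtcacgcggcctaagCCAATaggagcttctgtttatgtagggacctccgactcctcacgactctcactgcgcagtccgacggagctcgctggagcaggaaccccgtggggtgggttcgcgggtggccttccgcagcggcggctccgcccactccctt
Both windows hold CACGTG and CCAAT, with first bases at positions -8 and -81 in Slc25a33 and at -187 and -142 in Slc25a36. These positions count from the RefSeq start sites. The deposited gene coordinates reach 149774277 for Slc25a33 and 97111157 for Slc25a36, so part of each window lies inside them. The CACGTG letters were found upstream of 6 carriers in all, the other ones being Slc25a13, Slc25a14, Slc25a15 and the untested Slc25a31.

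**Figure D4:**
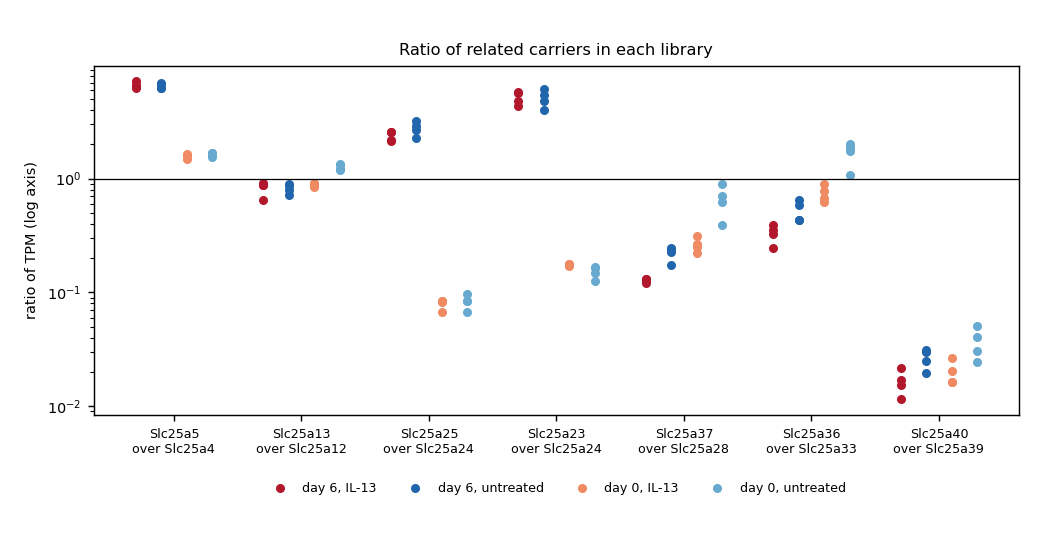
Ratio of TPM of related carriers in each library (dots, log axis, line at a ratio of 1), day 6 left of day 0 and IL-13 left of untreated within each pair. The ratios of Slc25a5 to Slc25a4 and of Slc25a25 and Slc25a23 to Slc25a24 are higher at day 6, and that of Slc25a36 to Slc25a33 is lower with IL-13 on both days.

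At day 6, after differentiation, few carriers differed between the arms. Of 38 tested carriers 1 rose with IL-13, Slc25a11, and 4 fell, Slc25a27, Slc25a36, Slc25a37 and Slc25a42, while 2.21% of all 12352 tested genes rose and 4.34% fell. These 13.2% of the carriers stand beside 6.55% of all genes. Slc25a11 had 219, 223, 237 and 211 CPM in IL-13 libraries, against 189.8, 186, 194 and 196 CPM in untreated ones (log2 fold change 0.22, SE 0.05, adjusted p = 0.0372). Slc25a37 had 10.8, 12.5, 12.1 and 12.5 CPM in IL-13 libraries, against 24.3, 23.8, 16.2 and 19.3 CPM in untreated ones (log2 fold change -0.80, SE 0.13, adjusted p = 0.0103). Both genes kept the arms apart, and so did the other carriers called. Slc25a42, the coenzyme A carrier, had 28.6, 24.9, 27.97 and 32.3 CPM in IL-13 libraries, against 50.3, 42.3, 36.9 and 39.5 CPM in untreated ones (log2 fold change -0.57, SE 0.10, adjusted p = 0.0155). Slc25a36 had 81.1, 75.8, 57.0 and 79.7 CPM in IL-13 libraries, against 109.9, 106, 84.3 and 96.2 CPM in untreated ones (log2 fold change -0.43, SE 0.11, adjusted p = 0.0473), and in TPM it stood at 0.330 ± 0.0639 times Slc25a33 in IL-13 and 0.524 ± 0.110 times in untreated cells. Slc25a27 was at 0.407 ± 0.119 CPM in IL-13 and 0.942 ± 0.149 CPM in untreated libraries (log2 fold change -1.19, SE 0.29, adjusted p = 0.0372).

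Of these calls, that of Slc25a37 alone held when any of the 8 libraries was left out. Slc25a11 lost its call without untreated library 1, 2 or 3 or IL-13 library 2, 3 or 4, at values from 0.17 to 0.24, and Slc25a36 without untreated library 1, 2 or 4 or IL-13 library 2, 3 or 4, at values from -0.47 to -0.34. Slc25a42 lost it without untreated library 2 (-0.57, adjusted p = 0.0603) or IL-13 library 2 (-0.51, adjusted p = 0.064), and Slc25a27 without any library except IL-13 library 1. Without IL-13 library 1, 5 carriers were higher and 6 lower, with Slc25a39 (0.39, adjusted p = 0.00756), Slc25a10 (0.35, adjusted p = 0.0165), Slc25a4 (0.26, adjusted p = 0.0207) and Slc25a5 (0.23, adjusted p = 0.0428) added above and Slc25a16 and Slc25a40 below. That fit called 988 higher and 1340 lower of all 12476 genes, against 273 and 536 of 12352 with all 8 libraries. Without untreated libraries 1 and 2, which had the highest nuclear RNA index of day 6, edgeR called 0 carriers, with 5 at an unadjusted p under 0.05. It called 2 of all 12549 genes, with 1190 at an unadjusted p under 0.05. The carriers called with all libraries were then at 0.18 (Slc25a11), -1.27 (Slc25a27), -0.31 (Slc25a36), -0.58 (Slc25a37) and -0.44 (Slc25a42). With the index as a covariate it called 0 carriers, with 0 at an unadjusted p under 0.05, and 0 of all 12352 genes, with 1113 at an unadjusted p under 0.05. Total count scaling gave 0 higher and 7 lower carriers, beside 53 higher and 1032 lower of all genes, whose median was then -0.08. With all 8 libraries Slc25a4 (0.22, adjusted p = 0.0898), Slc25a5 (0.23, adjusted p = 0.0677), Slc25a10 (0.26, adjusted p = 0.172), Slc25a39 (0.31, adjusted p = 0.0904) and Slc25a40 (-0.41, adjusted p = 0.0505) did not pass, nor did Slc25a12 (-0.01), Slc25a23 (0.13), Slc25a33 (0.22), Slc25a34 (-0.15) and Slc25a51 (-0.07). DESeq2 called Slc25a5 (0.22, adjusted p = 0.0279) and Slc25a40 (-0.42, adjusted p = 0.0141) of these. Slc25a40 also passed as a fall with RLE scaling (-0.42, adjusted p = 0.0491), total count scaling (-0.50, adjusted p = 0.0295) and no filter (-0.40, adjusted p = 0.0304). It passed too without untreated library 3 (-0.50, adjusted p = 0.019), and Slc25a33 passed as a rise without untreated library 4 (0.30, adjusted p = 0.0457).

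Whether IL-13 acted differently on the carriers at day 6 than at day 0 was tested as an interaction over all 16 libraries. Of 39 tested carriers 0 had a higher IL-13 effect at day 6 than at day 0 and 2 a lower one, beside 3.12% and 4.95% of all genes and 8.06% in either direction. At an unadjusted p under 0.05 there were 2 higher and 7 lower carriers, beside 2684 of all 13157 genes in either direction. DESeq2 called 1 carrier higher and 1 lower, beside 619 higher and 593 lower of all genes. The carriers called were Slc25a12 (-0.01 at day 6 against 0.29 at day 0, difference -0.32 (SE 0.09), adjusted p = 0.0331) and Slc25a23 (0.13 against 0.42, difference -0.32 (SE 0.09), adjusted p = 0.0236). The value of each day is from its own fit of 8 libraries and the difference from the fit of 16, so they need not add up. With RLE scaling the differences were -0.29 (adjusted p = 0.0527) for Slc25a12 and -0.28 (adjusted p = 0.0596) for Slc25a23, and neither passed. Leaving out any library but untreated day 0 library 3 or untreated day 6 library 3 ended the call of Slc25a12, at differences from -0.29 to -0.23. That of Slc25a23 ended without any library but untreated day 0 library 3 or IL-13 day 6 library 3, at differences from -0.30 to -0.23. For Slc25a37 the difference of 0.45 (SE 0.24) did not pass (adjusted p = 0.319), and for Slc25a36 it was 0.12 (SE 0.18) (adjusted p = 0.773). Slc25a30 did not pass either, at 0.30 (SE 0.10, adjusted p = 0.067). It passed as higher with RLE scaling (0.34, adjusted p = 0.036) and DESeq2 (0.34, adjusted p = 0.0321). It also passed without IL-13 day 0 library 1 or 4 or untreated day 6 library 1 or 2. So it did without IL-13 day 6 library 1, 3 or 4, and all these differences were from 0.35 to 0.39.

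Within the untreated groups 4 of 39 tested carriers had the order of the nuclear RNA index on each day. There 31 of 39 at day 0 and 34 of 39 at day 6 had neither its order nor the opposite one. In the IL-13 groups 6 carriers had its order at day 6 and 1 at day 0, and 2 had the opposite order on each day. With 4 libraries some carriers would match by chance, and the share over all genes was not counted. Among the untreated libraries of each day, Slc25a37 and Slc25a36 had the same order as the index, and so did Slc25a27 and Slc25a45 at day 0 and Slc25a12 and Slc25a42 at day 6. Within the IL-13 groups Slc25a37 had neither order on either day, and Slc25a36 had the order of the index at day 6 and neither at day 0. Among the untreated libraries the opposite order was found in Slc25a4 on both days and in Slc25a11, Slc25a26 and Slc25a44 at day 0. At day 0 untreated library 3 had the lowest index of its group, 5.49, and also the lowest Slc25a37, Slc25a36 and Slc25a27, while libraries 1 and 4 were highest in the index, 6.36 and 6.20, and in these 3 genes. Of the 21 tested nuclear RNAs 20 fell and 0 rose with IL-13 at day 0, and 15 fell and 0 rose at day 6. With the index as a covariate Slc25a37 was at -0.20 at day 0, against -1.29 without it, Slc25a27 at -0.45, against -1.91, Slc25a39 at 0.10, against 0.59, and Slc25a36 at 0.08, against -0.58. Only Slc25a24 (0.20 in both), Slc25a23 (0.35, against 0.42), Slc25a13 (-0.34, against -0.24) and Slc25a35 (1.21, against 0.69) stayed near their size or moved away from 0. The rest of the carriers called at day 0 moved toward 0 or past it. Among them Slc25a3 was at 0.05, against 0.20, Slc25a4 at 0.09, against 0.30, and Slc25a5 at -0.08, against 0.24. Slc25a10 was at 0.19, against 0.57, Slc25a33 at 0.25, against 0.58, and Slc25a53 at -0.10, against -0.45. None of the carriers was called in that fit. The part of nuclear RNA in these differences was not tested beyond that fit.

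**Figure D5:**
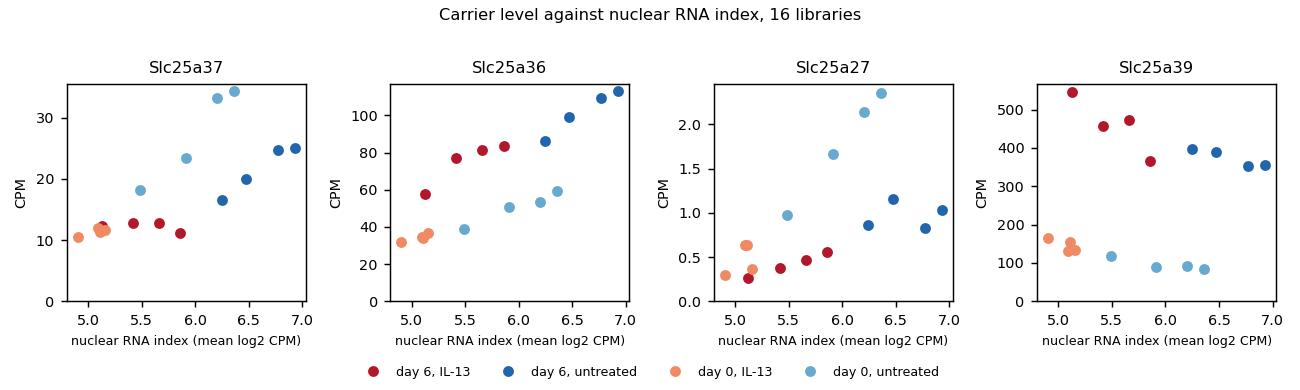
CPM of 4 carriers (vertical axis from 0) against the nuclear RNA index of the same library (mean log2 CPM), 16 libraries coloured by group. Untreated libraries lie right of the IL-13 libraries of the same day, and among the untreated day 0 libraries Slc25a37, Slc25a36 and Slc25a27 are higher where the index is higher while Slc25a39 is lowest in the library with the highest index, 6.36.

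Genes that work with the carriers were counted from lists chosen with earlier results known. The machinery that inserts carriers into the inner membrane, the Tom pore, the small Tim chaperones and Tim22, rose with the days in 16 of 16 tested genes in both arms, beside 40.6% of all genes in IL-13 and 41.5% in untreated cells. Timm8a1 and Timm9, chaperones of the intermembrane space, had log2 fold changes of 2.33 and 2.33 in IL-13 and 2.56 and 2.57 in untreated cells. The 5 genes of the outer membrane channel VDAC and the pyruvate carrier also all rose, with the pyruvate carrier subunit Mpc1 at 3.37 (SE 0.07) in IL-13 and 3.59 (SE 0.07) in untreated cells. Of 4 malate-aspartate shuttle enzymes 3 rose in IL-13 and 4 in untreated cells, Mdh1 by 2.37 and 2.26 on the log2 scale, in the same libraries in which Slc25a12 and Slc25a13 fell. Iron-sulfur and haem genes rose in 9 of 10 (1 fell) in IL-13 and in 10 of 10 in untreated cells. Mitochondrial folate enzymes were mixed, with 3 of 5 higher and 2 lower in both arms.

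With IL-13 at day 0, when 23.7% of all genes rose and 24.2% fell, 10 of the 16 import genes rose and 0 fell, with Tomm6, a small subunit of the Tom pore, at 0.57 (SE 0.10). All 5 channel and pyruvate carrier genes rose, Mpc1 by 0.46 (SE 0.06). So did 3 of 4 shuttle enzymes, among them Mdh2 (0.35 (SE 0.07)), and 4 of 5 folate enzymes, among them Mthfd2 (0.35 (SE 0.06)), with 0 falls in each. Of the iron-sulfur and haem genes 3 rose and 1 fell: the haem synthesis enzymes Cpox and Ppox were at 1.32 (SE 0.06) and -0.59 (SE 0.11). At day 6, when 2.21% of all genes rose and 4.34% fell, the lowest adjusted p of the import genes was 0.056 (Timm22, 0.27) and that of the folate enzymes 0.188 (Mthfd2, 0.11), 3 of the 5 channel and pyruvate carrier genes rose, and Ppox alone of 10 iron-sulfur and haem genes fell (-0.58 (SE 0.09)). Among family members under other names, 4 of 5 rose and 1 fell with the days in both arms, Ucp2 by 5.21 (SE 0.23) in IL-13 and 5.11 (SE 0.22) in untreated cells.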

How the data were processed

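Polyadenylated RNA was sequenced from 16 libraries made with a stranded Illumina kit, per the labels' protocols. The deposited tables, 1 for each day, give raw counts, RPKM, TPM and CPM per gene. Reads were trimmed before counting, per the file headers, and the genome build was mm10, per the submitters' processing notes. Aligner, counting tool, annotation and strand setting were not given in the sources used here. RPKM columns as deposited, scaled for length and depth by the authors, and the authors' deposited CPM, a score because its columns do not share 1 total, were not used.

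Deposited counts were tested with edgeR 4.0.16 in R 4.3.3 (TMM scaling, filterByExpr keeping its default limits of 10 counts per library and 15 in all, robust quasi-likelihood fit), with Benjamini-Hochberg adjustment over all genes tested and a threshold of 0.05. The SE of a log2 fold change is its size divided by the square root of F. IL-13 was compared within each day over 8 libraries, and the days, with the interaction of IL-13 and day, over all 16. CPM values are counts scaled to the TMM-adjusted library size. Levels between genes and ratios of related carriers use the TPM deposited by the authors. Counts per library ran from 15253031 to 18112087. Intervals and floors (3 counts) cover counting error only. The procedure was tested on simulated data.

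Named carriers are, in each comparison, the 5 called carriers with the largest change in each direction at a mean log2 CPM of at least 1, plus a panel of 16. Among the tested carriers, 1 enters the counts and medians but its own values are not reported here and it is not drawn. The carriers, the gene lists, the motifs and the panel were chosen with earlier results of these data known. Overlap with other genes was counted in GENCODE M21 and promoters were taken from RefSeq. The alternatives were RLE or total count scaling, no filter, DESeq2 1.42.0, the replicate number as a block, each library left out, the libraries with most nuclear RNA left out, only the 8 libraries of a day comparison, and the nuclear RNA index as a covariate.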

Additional observations from a re-analysis of the deposited data

Results flagged for a closer look

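In 103 groups of 4 libraries, from the 26 carriers with library values, 4 held a library set far from its 3 neighbours, and chance alone would give about 1 in 20 groups. Slc25a12 was 45.3 CPM in untreated day 0 library 3, the highest of its group, and Slc25a44 was 64.4 CPM in the same library, also the highest. Slc25a13 was 25.4 CPM in untreated day 0 library 4, the lowest of its group. Slc25a25 was 46.1 CPM in IL-13 day 6 library 3, the highest of its group. The effect of IL-13 differed between the days, at adjusted p under 0.05, in Slc25a12 (day 6 minus day 0, -0.320 on the log2 scale, adjusted p = 0.0331) and in Slc25a23 (-0.320, adjusted p = 0.0236).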

How the results depend on the processing

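The counts of carriers that changed between the days moved by less than 1.5 times under every alternative run, and leaving out each library gave 25 to 26 higher and 10 lower in IL-13 and 25 higher and 11 to 12 lower in untreated cells. The IL-13 counts were less stable. At day 0, 11 higher carriers became 7 with total count scaling, 6 without untreated libraries 1 and 4 and 0 with the nuclear RNA index in the model, and 7 lower became 4 without those libraries and 0 with the index (9 to 13 higher and 6 to 8 lower with a library left out). At day 6, 1 higher became 2 with DESeq2 and 0 with total count scaling, with the index and without untreated libraries 1 and 2, and 4 lower became 7 with total count scaling and 0 in the last 2 settings (0 to 5 and 1 to 6 with a library left out). DESeq2 called 575 higher and 853 lower of all 12352 genes at day 6. For the difference between the days, 0 higher became 1 with RLE scaling, 1 with DESeq2 and 2 with the index, and 2 lower became 0 with RLE scaling, total count scaling or no filter, 1 with DESeq2 and 5 with the index (0 to 1 and 0 to 3 with a library left out). Of all 13157 genes 410 were called higher and 651 lower there, against 802 and 1292 with the index. They were 509 and 505 with RLE scaling, 516 and 498 with total count scaling and 619 and 593 with DESeq2. Without a filter 522 and 446 of 21016 genes were called. With the index as covariate 4 called values changed sign: Slc25a36 at day 0 (0.0777) and day 6 (0.23), Slc25a5 at day 0 (-0.0776) and Slc25a4 between the days in untreated cells (0.0018). The cause was not tested. Over all tested carriers 3788 values were recomputed: leaving out a library left 2376 on the same side of the threshold, ended 62 calls and added 42, and the other settings left 1216, ended 51 besides the 4 that changed sign, and added 37.

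Same-numbered libraries correlated between -0.161 and 0.376 in their deviations from the group means, not all above 0.1, so the numbers were not taken as pairs. With the replicate block 11 carriers were higher and 8 lower with IL-13 at day 0, 7 and 6 at day 6, and 1 and 6 in the difference between the days. Of all genes that fit called 3244 higher and 3274 lower at day 0, 1342 and 1470 at day 6, and 619 and 989 in the difference.

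With 15253031 to 18112087 counts per library, carriers under 1 CPM rest on fewer than 20 counts in each library.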
